A study of Mus musculus with 4 samples.

Results

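Syndecans and glypicans are the main families of heparan sulfate proteoglycans at the surface of mouse cells. All 4 syndecan genes (Sdc1 to Sdc4) and all 6 glypican genes (Gpc1 to Gpc6) were examined, 10 of the 55421 genes in the count table. The genes were found by their symbols, and Sdc4 was selected on its measured difference between the groups, as one of the most significant falls of the comparison, while its paralogs were taken in by family name. Sdc4 is therefore described here by its levels and its fold change with no test. In the order of p-values, on which it was selected, it was 3rd among the genes called lower, just after Grem1 and just before Zbtb16. In the order of the size of the fall it was 355th of them.

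Transcripts were measured by RNA-seq in primary cultures of CD1 mouse spermatogonia (SSC cultures), which start from testis germ cells of neonatal pups and grow on mouse embryonic fibroblast (MEF) feeder cells in medium with N2 supplement, bFGF and GDNF. The labels give 10 ng/ml for each factor in all samples, whereas the study's medium composition lists a larger amount of GDNF. The comparison asks how such cultures respond to nutrient restriction combined with retinoic acid (RA). Veh cultures remained in complete SSC medium, and NRRA cultures received a medium in which a balanced salt solution took the place of most of the complete medium, plus RA. By this recipe bFGF and GDNF are diluted in NRRA cultures along with the nutrients, although the labels give the same amounts for both groups. Effects of nutrients, growth factors and RA therefore cannot be told apart here. No gene was deleted or added in either group. There were 2 libraries in each group. The study calls its sequencing replicates biological and independent and describes replicates in general as coming from different mice, tissues or cells, but which of these applies to the 2 libraries of a group is not given in the labels. The p-values below measure the spread between these libraries.

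Each proteoglycan of this kind is a core protein that carries long sugar chains of heparan sulfate. Syndecans cross the membrane and have a short cytoplasmic tail, whereas glypicans are held by a glycosylphosphatidylinositol (GPI) anchor. The chains bind secreted growth factors and act with their receptors, among them the FGFs and GDNF, which are the factors that maintain spermatogonial stem cells in culture.

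The libraries held between 28022265 and 31604769 counts. Pearson's r of log2 CPM (counts scaled to a common library size with TMM factors) was 0.993 and 0.994 within the groups and at most 0.959 across them. The RA-induced genes Stra8 and Cyp26a1 were higher in both NRRA libraries by 7.56 and 8.14 on the log2 scale. Feeder markers were present in every library. The 18 markers summed to between 10260 and 10370 CPM in Veh and to between 7910 and 8073 CPM in NRRA. Fn1 was the largest part of these sums, with means of 6110 CPM in Veh and 4350 CPM in NRRA. Of the 18 markers 14 were lower, 2 higher and none at 0. Beside these and the following marker counts, 27.9% of all genes tested were called higher and 28.4% lower, by the test given below. The 10 general germ cell markers summed to between 2344 and 2403 CPM in Veh and to between 2591 and 2598 CPM in NRRA. Of these 4 were higher, 4 lower and 2 not called. The largest rise was that of Sall4, from a mean of 181 CPM in Veh to 323 CPM in NRRA. All 10 markers of undifferentiated spermatogonia were lower, with sums of 1852 and 1878 CPM in Veh and 333 and 337 CPM in NRRA, while the 8 markers of differentiating spermatogonia summed to 1297 and 1350 CPM in Veh and to 3840 and 3851 CPM in NRRA, with 6 higher and 2 lower. Sertoli cell markers summed to 45.6 and 49.6 CPM in Veh and to 81.3 and 79.5 CPM in NRRA. Of the 6 tested, 3 were higher and 1 lower. Endothelial and macrophage markers summed to 50.9 and 53.2 CPM in Veh and to 34.9 and 34.1 CPM in NRRA. There 3 of the 7 tested were lower. What part these marker differences have in the values below was not tested. In such mixed cultures, fewer cells of a type and less RNA per cell cannot be told apart.

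Syndecan transcripts were dominated by Sdc4 in Veh cultures, and that dominance was gone in NRRA cultures. Sdc4 encodes the syndecan of focal adhesions, where it acts together with integrins. The gene lies on chromosome 2 from 164424247 to 164443887 on the minus strand (GRCm38) and has 5 coding exons for 198 codons, and no other annotated gene overlaps its exons. Sdc4 stood at 582 and 580 CPM in Veh replicates 1 and 2 and at 114 and 117 CPM in NRRA replicates 1 and 2. Both NRRA libraries were thus far below both Veh libraries, and the replicates of a group differed by only a few CPM. Behind these levels were 15814 and 17286 counts for Veh, against 3725 and 3520 counts for NRRA. The level was 5.03-fold higher in Veh, a log2 fold change of −2.33 (SE 0.028), and any NRRA library set against any Veh library gave a value between −2.35 and −2.31.

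The bases before the start of Sdc4 are shown with those of Sdc3, the other syndecan that fell, and of Gpc3, the member that rose most, because these genes moved in different directions. Upstream sequences from RefSeq were used for 7 of the 10 members, and those of Sdc2, Gpc1 and Gpc6 were not analysed here. Each line below gives the 250 bases before the RefSeq start (GRCm38.p6), from 5′ to 3′ on the gene's own strand. Capitals mark GGGCGG (the GC box bound by Sp1-type factors), AGGTCA (the half-site of nuclear receptors such as the RA receptors) and GGGAATTCC (an NF-kappaB type motif), each searched on both strands. The Sdc4 sequence is chr2:164443189-164443438 on the minus strand, that of Sdc3 is chr4:130792287-130792536 on the plus strand, and that of Gpc3 is chrX:52613975-52614224 on the minus strand.
Sdc4: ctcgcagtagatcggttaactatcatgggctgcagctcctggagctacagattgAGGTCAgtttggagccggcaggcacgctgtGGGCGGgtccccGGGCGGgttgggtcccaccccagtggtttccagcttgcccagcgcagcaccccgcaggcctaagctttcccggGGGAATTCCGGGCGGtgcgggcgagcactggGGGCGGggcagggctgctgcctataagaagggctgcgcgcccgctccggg
Sdc3: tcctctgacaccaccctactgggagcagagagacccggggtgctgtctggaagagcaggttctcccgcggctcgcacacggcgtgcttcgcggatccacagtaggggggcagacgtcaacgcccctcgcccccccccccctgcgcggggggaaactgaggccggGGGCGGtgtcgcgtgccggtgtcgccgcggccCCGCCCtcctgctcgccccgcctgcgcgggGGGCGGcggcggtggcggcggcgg
Gpc3: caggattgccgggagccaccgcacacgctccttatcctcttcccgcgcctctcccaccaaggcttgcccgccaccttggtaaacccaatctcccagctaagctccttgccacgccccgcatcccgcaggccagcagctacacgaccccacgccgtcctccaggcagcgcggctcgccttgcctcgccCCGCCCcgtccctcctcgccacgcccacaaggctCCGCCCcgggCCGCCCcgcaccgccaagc
The sequence of Sdc4 holds 4 copies of GGGCGG, and those of Sdc3 and Gpc3 hold 3 each. At least 1 copy was found in each of the 7 members with a sequence, and in 32.7% of the 32851 promoters searched over the same length. AGGTCA begins 196 bases before the start of Sdc4 and is absent from the other sequences printed here. Of the 7 members Gpc4 holds it too, 171 bases before its start, as do 14.0% of all promoters. GGGAATTCC begins 81 bases before the start of Sdc4, directly followed by a GC box, and was found in none of the other members and in 0.21% of all promoters. TATAA, the TATA box type, begins 29 bases before the start of Sdc4, was also found in Sdc1 and Gpc5, and is held by 22.8% of all promoters. A direct repeat of AGGTCA spaced by 5 bases, the arrangement known for RA receptors, was found in 0.00913% of all promoters and in none of the 7. The E-box CACGTG, found in 6.02% of all promoters, was in none of the 7 either. The upstream bases of Sdc4 are 68.0% G or C, those of Sdc3 76.4% and those of Gpc3 71.6%, against a median of 52.4% for all promoters. These matches describe letters in a window, and binding was not measured. GENCODE places the first base of Sdc4 699 bases further upstream than RefSeq, through 1 noncoding transcript, so that the printed bases lie in an intron of that transcript. It also starts Gpc4, Sdc1 and Gpc2 further upstream, and 250, 109 and 68 bases of their windows lie in annotated exons. The AGGTCA of Gpc4 is therefore within an exon by that annotation.

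**Figure D1:**
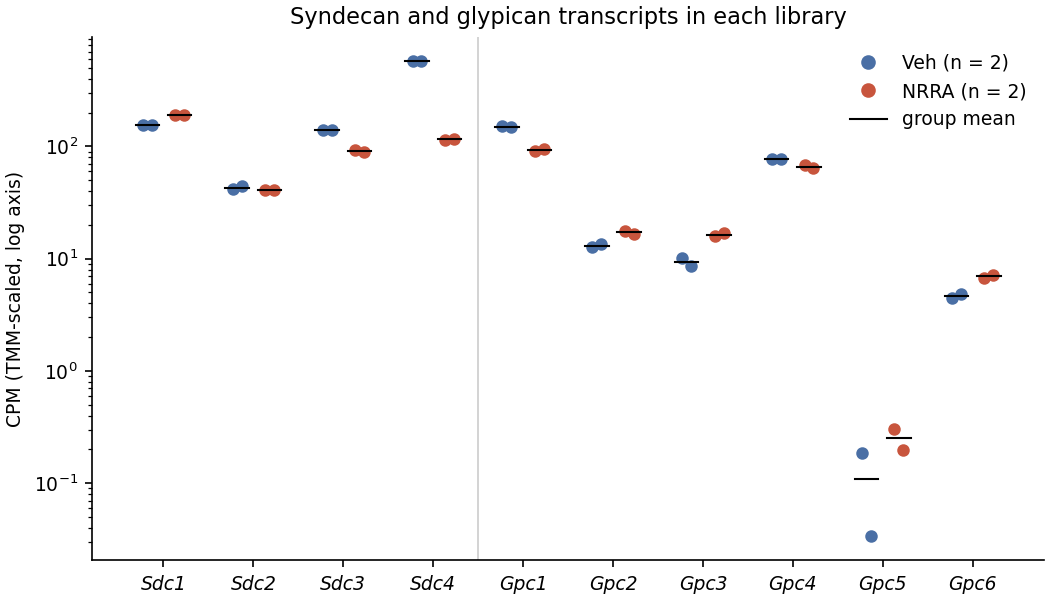
Level of each syndecan and glypican transcript in each library, as TMM-scaled CPM on a log axis, with Veh libraries in blue, NRRA libraries in red and a line at each group mean (n = 2). Sdc4 drops from about 581 to 116 CPM while the other members keep within 2-fold of their Veh level, apart from Gpc5, which rests on at most 10 counts a library.

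Among the other syndecans Sdc1 rose, Sdc3 fell and Sdc2 was not called. The test was edgeR's quasi-likelihood test with Benjamini-Hochberg adjustment over all 20232 genes tested, at a threshold of 0.05. Of all genes tested, 27.9% were called higher and 28.4% lower. Sdc4 left aside, 4 of the 8 tested syndecans and glypicans were called higher (Sdc1, Gpc2, Gpc3 and Gpc6) and 3 lower (Sdc3, Gpc1 and Gpc4). With so few genes, these counts are given beside the shares of all genes only as a description. With library sizes alone in place of TMM factors the same 4 and 3 members were called. That scaling shifted the median of all genes by 0.09 on the log2 scale, and with it 60.3% of all calls were higher, against 49.6% with TMM.

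Sdc1 encodes the syndecan known from epithelia and plasma cells. It is on chromosome 12 (8771323 to 8793715, plus strand, 311 codons) and no other gene overlaps its exons. Its level was 156 and 157 CPM in Veh and 191 and 190 CPM in NRRA. The rise was small but well outside the spread between libraries (log2 fold change 0.29, SE 0.031, edgeR adjusted p = 1.04e-08).

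Sdc3, the syndecan best known from the nervous system, lies on chromosome 4 (130792537 to 130826319, plus strand) and has the longest core protein of its family at 442 codons. Its level was 141 and 139 CPM in Veh and 92.1 and 89.2 CPM in NRRA. The groups were clearly apart, and the log2 fold change was −0.63 (SE 0.036), with an edgeR adjusted p = 6.36e-14. Genes on the opposite strand, Gm12970 and Gm26716, overlap 7.73% of its exonic bases. Gm26716 stood at 12.5 and 12.6 CPM in Veh and at 9.66 and 7.03 CPM in NRRA.

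Sdc2, a syndecan of mesenchymal cells, lies on chromosome 15 (32920723 to 33034935, plus strand, 202 codons). It stood at 41.4 and 44.5 CPM in Veh and at 41.0 and 40.5 CPM in NRRA. The log2 fold change of −0.077 (SE 0.057) was not significant (edgeR adjusted p = 0.262), although both NRRA values lay just below both Veh values, and it turned to 0.013 when library sizes alone were used for scaling.

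**Figure D2:**
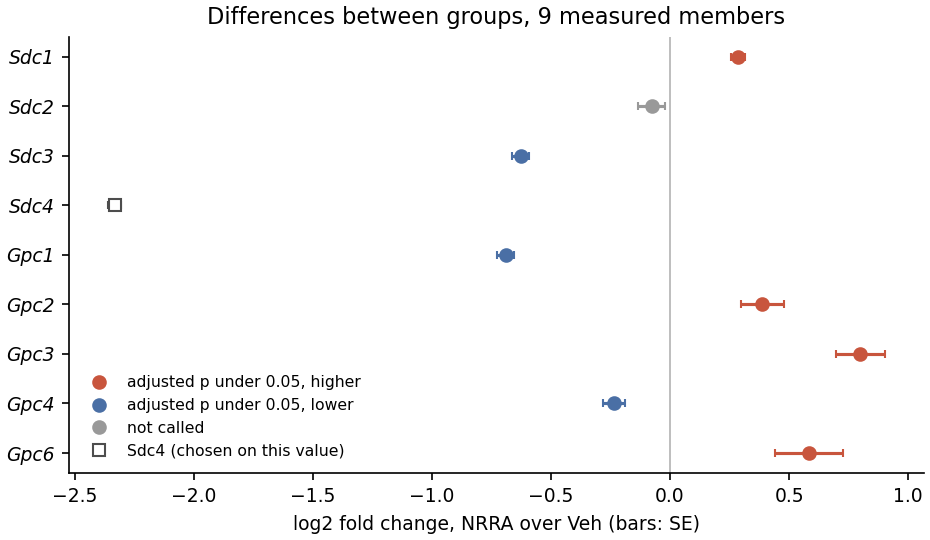
Log2 fold change of NRRA over Veh for the 9 members with enough counts, with bars of 1 SE, in red where called higher, in blue where called lower and in grey where not called, and with Sdc4 as an open square because it was chosen on this value. Sdc4 lies at −2.33, and the other members lie between −0.69 and 0.80.

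Glypican transcripts moved in both directions, and none of the tested members stayed uncalled. Gpc1 and Gpc4, which had the highest levels per length of the family, fell, and Gpc2, Gpc3 and Gpc6, which had lower levels, rose. Gpc5 had too few counts for the test.

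Gpc1 encodes a widely expressed glypican known as a co-receptor of FGF2. It lies on chromosome 1 (92831645 to 92860779, plus strand, 557 codons). Its level was 151 and 149 CPM in Veh and 91.9 and 94.6 CPM in NRRA. The fall was the largest of the family (log2 fold change −0.69, SE 0.036, edgeR adjusted p = 5.57e-15), with the groups well apart. Ankmy1 on the opposite strand overlaps 18.9% of the exonic bases of Gpc1. Ankmy1 had only 10.3 and 10.5 CPM in Veh and 6.47 and 6.97 CPM in NRRA, a log2 fold change of −0.64, and the strand setting of the counting is not given in the sources used here.

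Gpc4, a glypican that acts on FGF and Wnt signalling, lies on the X chromosome (52053021 to 52165252, minus strand, 557 codons). It stood at 77.6 and 77.7 CPM in Veh and at 67.9 and 64.0 CPM in NRRA. This fall was small (log2 fold change −0.24, SE 0.045, edgeR adjusted p = 6.57e-05), but the groups did not overlap.

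Gpc3 is the next gene on the X chromosome (52272426 to 52613950, minus strand, 579 codons), 107.2 kb from Gpc4 and on the same strand. It encodes the glypican that restrains Hedgehog signalling and is mutated in Simpson-Golabi-Behmel overgrowth syndrome. Its level was 10.1 and 8.66 CPM in Veh and 15.8 and 16.8 CPM in NRRA. The rise was the largest among the tested members (log2 fold change 0.80, SE 0.10, edgeR adjusted p = 2.38e-07), so that these tandem genes moved in opposite directions.

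Gpc6, a glypican of mesenchymal tissue needed for the growth of long bones, lies on chromosome 14 (116925315 to 117976544, plus strand, 555 codons). It stood at 4.46 and 4.83 CPM in Veh and at 6.75 and 7.20 CPM in NRRA. The libraries of the groups were separate, and the log2 fold change was 0.58 (SE 0.14), with an edgeR adjusted p = 0.000997. Its tandem partner Gpc5, a glypican that promotes Hedgehog signalling, ends 400.1 kb before it (115092215 to 116525179, plus strand, 645 codons). Gpc5 had 5 and 1 counts in the Veh libraries against 10 and 6 in the NRRA libraries, and did not pass the filter on low counts. The sums of 6 counts (exact 95% Poisson interval 2.20 to 13.1) and 16 counts (9.15 to 26.0) gave a ratio of 2.42, with an interval of 0.899 to 7.55 that includes no difference. These intervals cover counting error only.

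Gpc2, a glypican of the developing nervous system, lies on chromosome 5 (138273655 to 138280005, minus strand, 579 codons) and spans only 6.4 kb. It stood at 12.7 and 13.4 CPM in Veh and at 17.5 and 16.7 CPM in NRRA. The groups did not overlap, and the log2 fold change of this rise was 0.39 (SE 0.090) with an edgeR adjusted p = 0.000628. This value is uncertain, because Gm43720, a gene model on the same strand, overlaps 55.6% of its exonic bases, matches 91.9% of its longest coding transcript, and is listed at 0 in every library, as is the adjacent Gal3st4. Stag3, which encodes a meiotic cohesin subunit, begins 0.2 kb from Gpc2 on the other strand. Stag3 rose as well, from 281 and 282 CPM to 504 and 507 CPM.

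Levels were compared between members per kilobase (kb) of exon. In Veh cultures Sdc4 stood far above the rest at 228 CPM per kb (SD 0.58, n = 2). Sdc1 followed at 41.0, then Gpc4 at 29.3 and Gpc1 at 29.1, Sdc3 at 23.4, Sdc2 at 12.2, Gpc3 at 3.49, Gpc2 at 3.06, Gpc6 at 0.723 and Gpc5 at 0.0245 CPM per kb. Gpc4 and Gpc1 did not differ beyond their spread on this length, and their order turned between the replicates of Veh. Per kb of the longest coding transcript Gpc1 was the higher at 36.0, against 29.3 for Gpc4. Gpc3 and Gpc2 lay close together, and their order depends on how the length is counted. In NRRA cultures Sdc1 was the highest at 49.99 CPM per kb (SD 0.11) and Sdc4 second at 45.4 (SD 0.72). Below them came Gpc4 at 24.9, Gpc1 at 18.1, Sdc3 at 15.1, Sdc2 at 11.6, Gpc3 at 6.06, Gpc2 at 4.004, Gpc6 at 1.09 and Gpc5 at 0.0568 CPM per kb. The exchange of Sdc1 and Sdc4 held in both replicates and also with the longest coding transcript as the length. The level of Gpc2 is uncertain on either length, because of the overlap given above. With all its counts divided by only the 1898 exonic bases that no other gene overlaps, it came to 6.90 CPM per kb in Veh and 9.02 in NRRA. Most of these bases lie outside its longest coding transcript, and whether reads from the overlap were counted is not known. This calculation was added after the overlap was seen.

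The summed syndecan level dropped from 304.9 and 304.7 CPM per kb in Veh to 121.9 and 122.1 in NRRA. Without Sdc4 the sums were 76.2 and 76.9 in Veh and 77.1 and 76.3 CPM per kb in NRRA, so that on this scale the groups overlapped. This depends on the scale, since with library sizes alone the sums were 73.8 and 74.6 in Veh and 79.5 and 78.7 CPM per kb in NRRA, and without division by length 338 and 340.0 in Veh and 324 and 320 CPM in NRRA. Sdc4 made up 75.0% and 74.8% of the syndecan sum in Veh and 36.8% and 37.5% in NRRA. Sdc1 went from 13.4% and 13.5% to 41.1% and 40.9%, and became the largest share. Summed glypicans went from 66.1 and 65.4 to 54.5 and 53.8 CPM per kb. Within them Gpc1 went from 44.4% and 44.3% to 32.7% and 34.1% of the sum, and Gpc3 from 5.68% and 4.92% to 10.8% and 11.6%. Gpc4 held a share of 44.3% and 44.8% in Veh and of at least 44.9% in both NRRA libraries. For all 10 members the sum was 370.9 and 370.1 CPM per kb in Veh and 176.4 and 175.9 in NRRA.

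**Figure D3:**
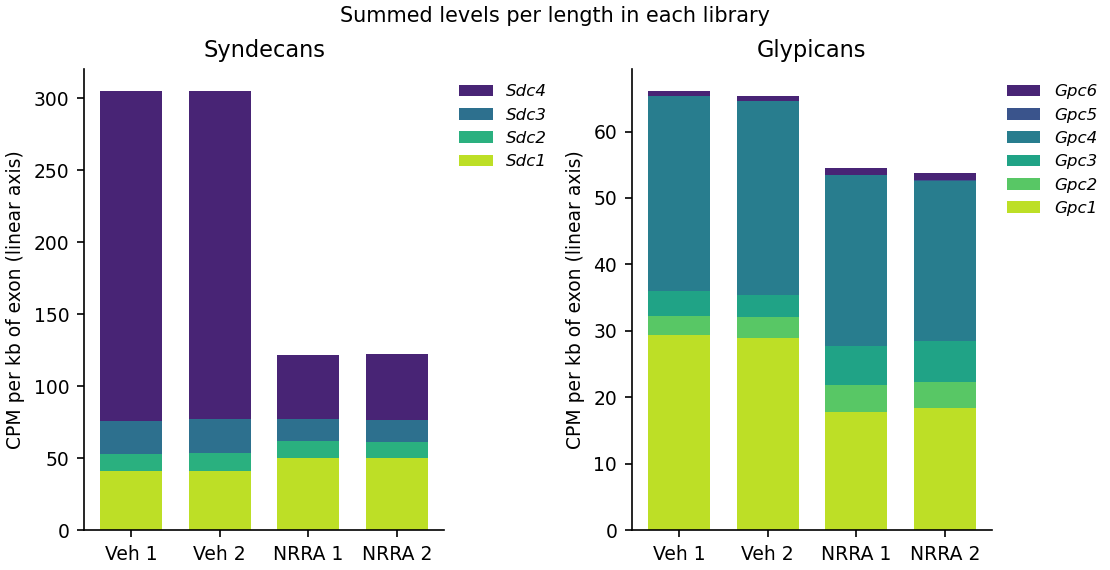
Summed CPM per kb of exon in each library, stacked by member, for the syndecans on the left and the glypicans on the right, on separate linear axes. The Sdc4 segment shrinks in both NRRA libraries while the rest of the syndecan bar stays near 76 to 77 CPM per kb on this TMM scale, and the Gpc1 segment shrinks on the glypican side.

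Most of the tested genes beside Sdc4 were lower too. This neighbourhood was chosen after the values of the nearest genes had been seen. Of 9 other protein-coding genes within 100 kb, 7 were tested, of which 5 were lower, 1 was higher and 1 was not called, and 28.4% of all genes tested were lower. Rbpjl, an RBPJ-like transcription factor gene 8.8 kb away, had 6.11 and 6.85 CPM in Veh and 1.01 and 1.56 CPM in NRRA (log2 fold change −2.34). Matn4, a matrilin of the extracellular matrix 19.1 kb away, fell from 31.9 and 30.0 to 5.83 and 5.18 CPM (−2.49). Slpi, a secreted inhibitor of leukocyte proteases 35.2 kb away, fell from 48.7 and 43.6 to 6.62 and 5.64 CPM (−2.91). These 3 genes lie at lower coordinates, beyond the 3′ end of Sdc4, and fell by about as much as Sdc4 itself or more. At higher coordinates the falls were smaller, with −1.09 for Sys1, a Golgi protein gene at 13.1 kb, and −0.74 for Dbndd2 at 42.2 kb. Trp53tg5 was not called at −0.39, and Pigt, which encodes a subunit of the GPI transamidase, was higher at 0.14. None of these genes overlaps an exon of Sdc4, and whether they share regulation was not tested.

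**Figure D4:**
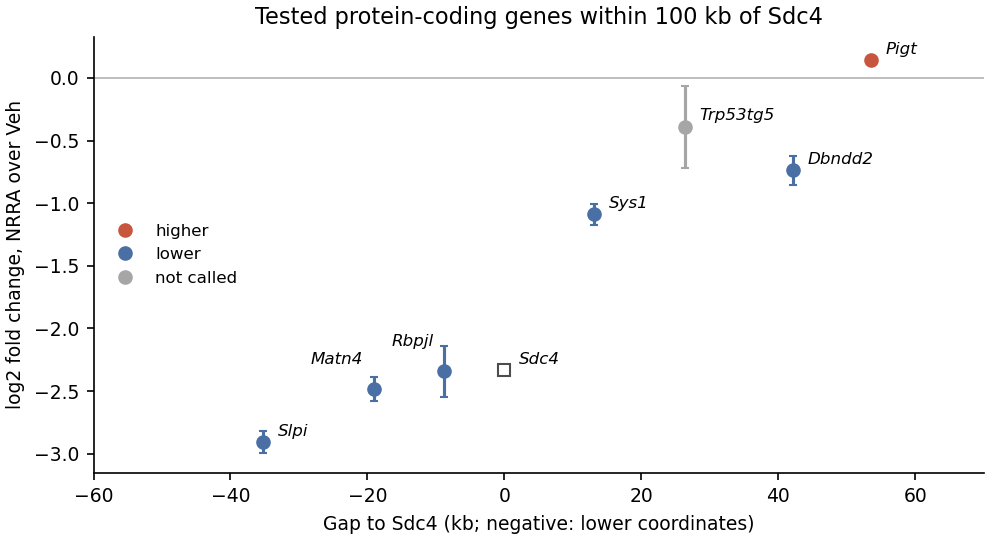
Log2 fold change of NRRA over Veh (bars, 1 SE) for the 7 tested protein-coding genes within 100 kb of Sdc4 against the gap to Sdc4 in kb, with higher genes in red, lower genes in blue, the uncalled gene in grey and Sdc4 as an open square. Slpi, Matn4 and Rbpjl at negative gaps lie between −2.91 and −2.34, and the genes at positive gaps lie between −1.09 and 0.14.

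The surroundings of the other members were taken the same way. Pum2, the only gene tested within 100 kb of Sdc1, was higher, and Cpq near Sdc2 and Laptm5 near Sdc3 were not called. Of 5 tested genes within 100 kb of Gpc1, 1 was higher and 1 lower, and of 7 near Gpc2, 3 were higher and 2 lower. The shares of all genes tested beside these small counts are 27.9% higher and 28.4% lower. Syndecan genes lie in paralogous regions that also hold matrilin and Myc family genes. Of the 7 such neighbours listed, Matn4 (−2.49), Mycn (−2.91) and Myc (−0.84) fell, Matn2 rose (0.26), and Mycl was not called at −0.023. Matn3 had 2 counts in each Veh library and 104 and 96 counts in the NRRA libraries, at least 30.2-fold higher when the Veh libraries are set at the floor of 3 counts each. Matn1 did not pass the filter.

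The genes whose profile over the 4 libraries was most like that of Sdc4 were Phgdh, Glis3, Crmp1, Gm19553 and Enc1. Likeness was the Euclidean distance between log2 CPM profiles centred on each gene's mean, among 11324 genes, and ranged from 0.0361 for Phgdh to 0.0934 for Enc1. Phgdh, the first enzyme of serine synthesis, went from 270.0 and 269.0 CPM in Veh to 54.2 and 55.6 CPM in NRRA. Glis3, a zinc finger transcription factor gene, went from 322 and 317 to 64.3 and 63.7 CPM. With 2 libraries in each group this measure mostly finds genes with a fall of the same size, from −2.30 to −2.38 here.

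Other genes around heparan sulfate, from its synthesis and breakdown to the partners of syndecan tails and the factors that bind the chains, moved in both directions. Of 84 genes in 7 lists, 81 were tested, of which 27 were higher, 33 lower and 21 not called, and the shares of all genes tested that these counts and those of each list stand beside are again 27.9% higher and 28.4% lower. The median log2 fold change was −0.038, beside 0.00029 for all genes tested. With library sizes alone the median was 0.052, with 32 higher and 26 lower, so that its sign and the larger count depend on the scaling.

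Chain synthesis begins with a linker tetrasaccharide on the core protein, which the exostosins extend. Of its 12 genes 5 were higher, 5 lower and 2 not called. Extl1, an exostosin-like glycosyltransferase, fell from 28.6 and 27.0 to 5.09 and 5.94 CPM (log2 fold change −2.34). Xylt1, which adds the first xylose to core proteins, rose from 16.6 and 15.6 to 31.5 and 35.3 CPM (1.05). Extl3, which starts the chain and had the highest level per length of this list as a mean over both groups, fell by 0.40 on the log2 scale. The polymerase is a complex of Ext1 and Ext2, of which Ext2 rose (0.36) while Ext1 was at 0.033 and not called. Extl2 was not called either at −0.14. The median of the list was −0.053. With library sizes alone it was 0.037, with 6 higher and 2 lower, and DESeq2 called 4 higher and 3 lower.

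Sulfation and epimerisation give the chains their binding sites. Of 19 genes 16 were tested, with 7 higher, 4 lower and 5 not called and a median of 0.18. The largest changes were in the 3-O-sulfotransferases, which add a rare final modification. Hs3st3b1 fell from 33.5 and 34.3 to 8.77 and 9.62 CPM (−1.88). Hs3st1 rose from 3.61 and 4.03 to 10.6 and 10.1 CPM (1.44), and Hs3st6 from 1.80 and 0.806 to 4.11 and 4.01 CPM (1.66). Hs3st4 was called higher on 4 and 2 counts for Veh against 15 and 14 for NRRA, a ratio of 4.38 with a counting interval of 1.79 to 12.9. Members of 1 enzyme family thus moved in opposite directions. Glce, the epimerase and the list's highest gene per length as a mean over both groups, rose by 0.18. Of the genes that make or carry the sulfate donor, Papss1 rose from 38.5 and 35.5 to 61.1 and 61.2 CPM (0.73), while Slc35b2 (−0.019) and Papss2 (0.023) were not called.

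Of 10 genes of extracellular editing and shedding, 5 were lower, 2 higher and 3 not called. Mmp9, a matrix protease that can shed syndecans, fell from 89.9 and 87.7 to 26.9 and 23.7 CPM (−1.81). Mmp14, a membrane-bound matrix protease, fell from 216 and 209 CPM to 101 CPM in both NRRA libraries (−1.07). Sulf1, a sulfatase that removes 6-O-sulfates from finished chains, fell from 86.9 CPM (SD 5.73, n = 2) to 48.5 CPM (SD 4.96, n = 2), a log2 fold change of −0.84. These falls went beside the lower feeder marker sum, whose part was not tested. Notum, a hydrolase that inactivates Wnt ligands and can release glypicans, rose by 0.48. The sheddases Adam10 (0.050, highest per length as a mean over both groups) and Adam17 (−0.056) were not called. The median was −0.075. With library sizes alone it was 0.015, with 3 higher and 4 lower, and DESeq2 called 1 higher and 4 lower.

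All 8 lysosomal enzymes of heparan sulfate breakdown were tested, with 3 higher, 4 lower and 1 not called. Ids, the iduronate sulfatase, rose by 0.73 and Hgsnat, the acetyltransferase, by 0.38. Arsg, a sulfatase (−0.52), and Gusb, the glucuronidase (−0.43), fell. The groups of Arsg overlapped, with 3.54 and 5.74 CPM in Veh and 2.98 and 3.55 CPM in NRRA. Naglu, a glucosaminidase, was not called at 0.083. With library sizes alone 1 gene was lower and the median turned from −0.017 to 0.073, and DESeq2 called 2 higher and 2 lower.

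Of 7 other heparan sulfate proteoglycans, 3 were lower, 1 higher and 3 not called, with a median of −0.12. With library sizes alone 3 were lower and 2 higher, and the median was −0.034. Hspg2, the basement membrane proteoglycan perlecan, was the highest of them per length and rose from 1010 and 988 to 1140 and 1120 CPM (0.18). Col18a1, a basement membrane collagen, fell from 412 and 395 to 258 and 260 CPM (−0.64). Cd44, a hyaluronan receptor with heparan sulfate in some isoforms, fell from 145 and 141 to 77.7 and 71.6 CPM (−0.94). Agrn, agrin, fell slightly (−0.17), and the co-receptors Nrp1 (0.11) and Tgfbr3 (−0.12) were not called. None of these 3 falls approached the size of that of Sdc4.

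The list of genes tied to syndecan tails held 12 genes, of which 5 were lower, 2 higher and 5 not called, with a median of −0.23. Sdcbp2, a relative of syntenin with PDZ domains, fell from 7.29 and 7.39 to 1.90 and 2.02 CPM (−1.90). Tiam1, a Rac activator known to bind syndecan, fell from 101 and 113 to 64.2 and 65.6 CPM (−0.72). Ezr, ezrin, which links membrane proteins to actin, rose from 58.4 and 54.3 to 87.6 and 84.5 CPM (0.61). Dbndd2, the neighbour of Sdc4 given above, stood in this list too, although it is not an established partner of syndecans. Pdcd6ip (−0.038), Gipc1 (0.048) and Cttn (−0.063, highest per length) were not called.

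The heparin-binding factors and their receptors held 16 genes, with 7 higher, 7 lower and 2 not called and a median of 0.24. Ret, the signalling receptor of GDNF, had the highest level per length of the list as a mean over both groups. It fell from 456 and 448 to 64.5 and 63.5 CPM (log2 fold change −2.82). This is larger than the fall of Sdc4, and Ret is also one of the 10 markers of undifferentiated spermatogonia. Of the FGF receptor genes Fgfr1, the most abundant, fell from 219 and 212 to 167 and 160.0 CPM (−0.40). Fgfr2 (0.90), Fgfr3 (1.69) and Fgfr4 (1.42) rose, Fgfr3 from a mean of 8.10 to 26.1 CPM. Ptn, the heparin-binding cytokine pleiotrophin, rose from 20 counts in each Veh library to 80 and 53 in NRRA (1.58). Vegfa fell by 0.22, and Mdk, midkine, was not called at 0.24.

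**Figure D5:**
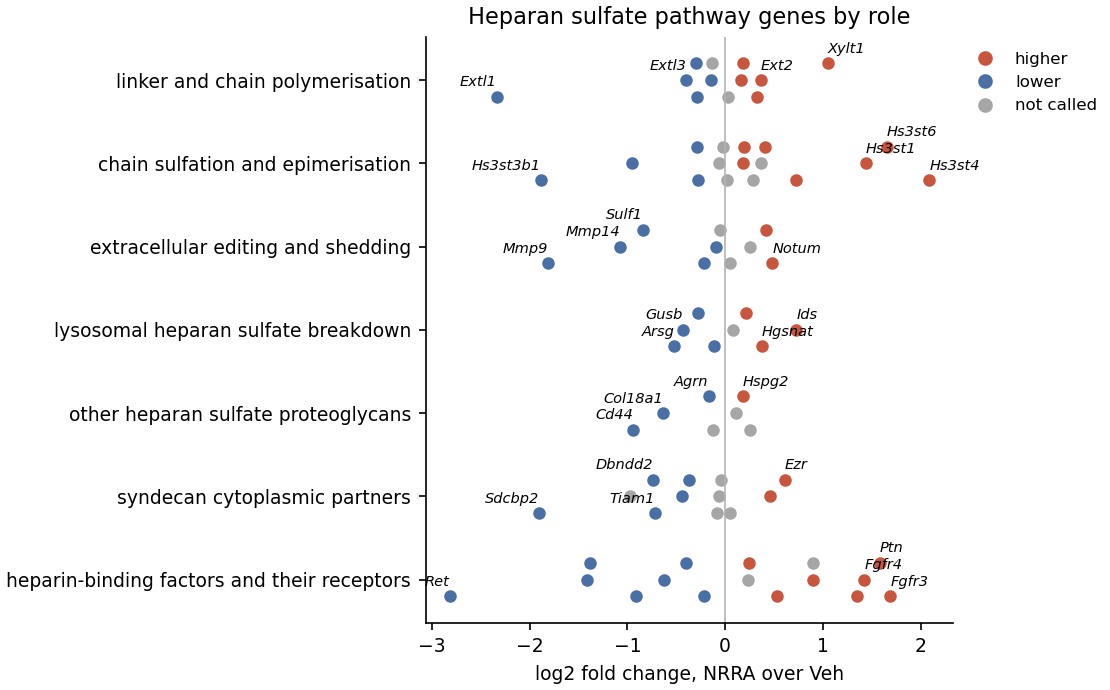
Log2 fold change of NRRA over Veh for the 81 tested genes of the 7 lists around heparan sulfate by role, 1 point per gene, in red where called higher, in blue where called lower and in grey where not called. Each list has genes on both sides of 0, from Ret at −2.82 to Hs3st4 at 2.09.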

How the data were processed

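RNA-seq was analysed for 2 Veh and 2 NRRA libraries. The unit is raw counts of reads, which the authors deposited as 1 table with a column for each library. Columns were matched to samples by their descriptions, since the Veh titles number these libraries 1 and 2 and their columns carry the next higher numbers. The submitters' processing notes name bcl2fastq, STAR 2.6.1c, featureCounts 1.6.4 and mm10, and the annotation release and the strand setting are not given in the sources used here. The study's methods name a stranded Tecan kit and the labels an Illumina TruSeq kit, so reads of overlapping genes may be assigned differently than assumed here.

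Counts were tested with edgeR 4.0.16 in R 4.3.3 (filterByExpr, TMM, robust quasi-likelihood F test) without covariates, and p-values were adjusted by Benjamini-Hochberg over 20232 genes. SE was derived from the F statistic, and log2 CPM used a prior count of 2. A count of 3, the floor, was 0.092 to 0.11 CPM, and intervals and floors cover counting error only. On simulated counts, 84.4% of genes changed by a log2 of 1 and 64.3% of those changed by 0.5 were recovered. DESeq2 1.42.0 and other settings were run as alternatives. Sums of the syndecans other than Sdc4 on other scales were added after the data were seen. Per-length levels used the union of exons in GENCODE M21 (GRCm38), where 99.7% of 55421 identifiers were found. The share of exons overlapped by other genes was computed there, and near-identical sequence with BLAST. Upstream sequences are from RefSeq (GRCm38.p6).

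The members and lists were chosen with earlier results of these data known. Named were all members, and in each list up to 4 called genes with the largest and up to 2 tested genes with the smallest change. The highest gene per length of each list, as a mean over both groups, was named too. Also named were the nearest coding genes, the 5 genes most like Sdc4 (mean log2 CPM of 3 or more), Stra8 and Cyp26a1. The 100 kb neighbourhood, the remaining genes of the paralogous regions, the overlapping genes, Papss1, Fgfr1 and Fgfr2 were named outside this rule, after their values were seen. A few genes that this rule names are not reported here.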

Additional observations from a re-analysis of the deposited data

How the results depend on the processing

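The 8 tested members other than Sdc4 were refitted under 12 alternatives (DESeq2, other scalings and filters, no robust estimation, a replicate block, each library left out, a minimum fold). Of the 96 values, 92 had the same sign and the same call as with the main settings. A test against a fold of 1.2 (edgeR's glmTreat) gave 3217 genes higher and 3304 lower, 2 members higher, and 16 pathway genes higher and 20 lower. There Sdc1, Gpc2 and Gpc4 were not called (adjusted p = 0.211, 0.0803 and 0.742), which follows from the minimum fold. Sdc2 changed sign with library sizes alone (0.013), while not called. The log2 fold change of Sdc4 stayed between −2.35 and −2.24. With the replicate number as a block, 5772 genes were higher and 5836 lower, and the same number of members was called in each direction. The numbers pair no samples in the labels, and same-numbered libraries did not deviate together (correlation −0.011). When a library was left out, the lone library of its group was assumed to vary like those of the other group, and members called stayed at 4 higher and 3 lower. Gpc5 was fitted only with DESeq2 (log2 fold change 1.24, adjusted p = 0.546) and without a filter (1.23, adjusted p = 0.372). Depth limits Gpc5 and Hs3st4, and with 2 libraries a group the spread itself is poorly known. No samples were tested for outliers, because the groups have 2 libraries each.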
